A study of Homo sapiens with 18 samples.

Results

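Melanin synthesis and melanosome core genes are described here by 10 human genes picked by symbol for their roles in pigment cells: TYR, TYRP1, DCT, PMEL, MLANA, SLC24A5, SLC45A2, OCA2, TRPM1 and GPR143. The rule for picking them did not use their measured levels, but earlier results of these data were known at the time. All 10 were among the 63677 genes counted, and all 10 passed the filter on low counts, which kept 18121 genes. RNA came from WM989, an established human melanoma cell line, in 18 libraries of 6 groups with 3 libraries each. For 7 days cells received EPZ5676 at 4 µM or its solvent, DMSO; EPZ5676 blocks DOT1L, a methyltransferase of histone H3. From each treatment the study took cells with high NGFR and EGFR, cells with low NGFR and EGFR, and the bulk culture, so the groups were EPZ5676 high, EPZ5676 low, EPZ5676 bulk, DMSO high, DMSO low and DMSO bulk. All groups share this 1 line, which is a tumour and not normal melanocytes.

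Melanin is made in melanosomes, lysosome-related organelles of pigment cells. Tyrosinase (TYR) oxidises tyrosine, and TYRP1 and dopachrome tautomerase (DCT) act on later intermediates on the way to eumelanin. PMEL forms the amyloid fibrils on which pigment is laid down, MLANA (MART-1) takes part in PMEL maturation, and SLC24A5, SLC45A2 and OCA2 are membrane proteins that set the ion and pH conditions inside the organelle. TRPM1 is a cation channel gene whose level in melanoma is known to track differentiation, and GPR143 is a melanosomal receptor that controls organelle size and number. The transcription factor MITF is known to act on most of these genes through E-box motifs, among them the M-box, in their promoters.

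RefSeq promoter windows, which cover 250 bases before to 50 bases after a transcript start on GRCh38.p14, were at hand for 8 of the 10 genes, in 10 windows. The 6-letter motif CATGTG was searched on both strands and so also read as CACATG. It was present in 8 of these 10 windows, against 11.1% of all 35116 windows, and in 7 of the 8 genes, against 13.4% of all 27305 genes. The longer motif TCATGTGCT, which contains CATGTG and was also searched on both strands, was present in 4 of the 10 windows, against 0.216% of all windows. TYR, TYRP1, DCT and GPR143 held the longer motif. A match is a string of letters in a window and no measurement of binding. E-box motifs were already known in promoters of most of these genes, so these shares describe the windows and test nothing. The stretches of 250 bases before the start are printed for genes the results turn on, TYR, TYRP1, DCT, GPR143 and TRPM1 with the motif and MLANA without it, 5′ to 3′ on the gene's strand with CATGTG or CACATG in capitals. They lie at chr11:89177625-89177874 on the plus strand for TYR, chr9:12693135-12693384 on the plus strand for TYRP1, chr13:94479683-94479932 on the minus strand for DCT (the downstream of 2 starts), chrX:9765848-9766097 on the minus strand for GPR143, chr15:31101726-31101975 on the minus strand for TRPM1 (the downstream of 2 starts) and chr9:5890639-5890888 on the plus strand for MLANA.
TYR: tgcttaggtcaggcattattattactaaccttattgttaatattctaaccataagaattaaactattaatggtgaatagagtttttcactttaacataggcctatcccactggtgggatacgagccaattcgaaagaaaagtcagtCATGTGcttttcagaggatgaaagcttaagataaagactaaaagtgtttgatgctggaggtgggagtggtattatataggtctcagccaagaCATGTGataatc
TYRP1: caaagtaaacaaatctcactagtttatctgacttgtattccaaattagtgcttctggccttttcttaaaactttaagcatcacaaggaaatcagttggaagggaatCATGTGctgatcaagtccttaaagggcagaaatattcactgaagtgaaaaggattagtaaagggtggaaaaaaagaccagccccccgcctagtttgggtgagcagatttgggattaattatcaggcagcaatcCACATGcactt
DCT: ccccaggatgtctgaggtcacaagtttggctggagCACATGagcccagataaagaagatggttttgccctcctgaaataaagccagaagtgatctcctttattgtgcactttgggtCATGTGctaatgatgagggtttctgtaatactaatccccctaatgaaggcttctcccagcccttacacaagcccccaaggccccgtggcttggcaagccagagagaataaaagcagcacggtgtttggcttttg
GPR143: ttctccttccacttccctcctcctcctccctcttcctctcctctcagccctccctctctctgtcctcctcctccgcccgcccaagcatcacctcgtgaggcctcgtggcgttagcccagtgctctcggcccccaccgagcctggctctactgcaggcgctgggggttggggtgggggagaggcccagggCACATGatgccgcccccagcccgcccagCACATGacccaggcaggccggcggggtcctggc
TRPM1: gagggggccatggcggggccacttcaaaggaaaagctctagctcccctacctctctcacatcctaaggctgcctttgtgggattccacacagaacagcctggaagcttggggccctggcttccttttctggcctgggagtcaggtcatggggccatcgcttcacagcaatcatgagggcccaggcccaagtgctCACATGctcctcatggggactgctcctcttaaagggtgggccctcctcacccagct
MLANA: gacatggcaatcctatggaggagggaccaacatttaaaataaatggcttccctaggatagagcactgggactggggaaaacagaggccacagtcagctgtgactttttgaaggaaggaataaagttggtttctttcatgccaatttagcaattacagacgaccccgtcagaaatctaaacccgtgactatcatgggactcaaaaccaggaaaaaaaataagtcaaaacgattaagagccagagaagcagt

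**Figure D1:**
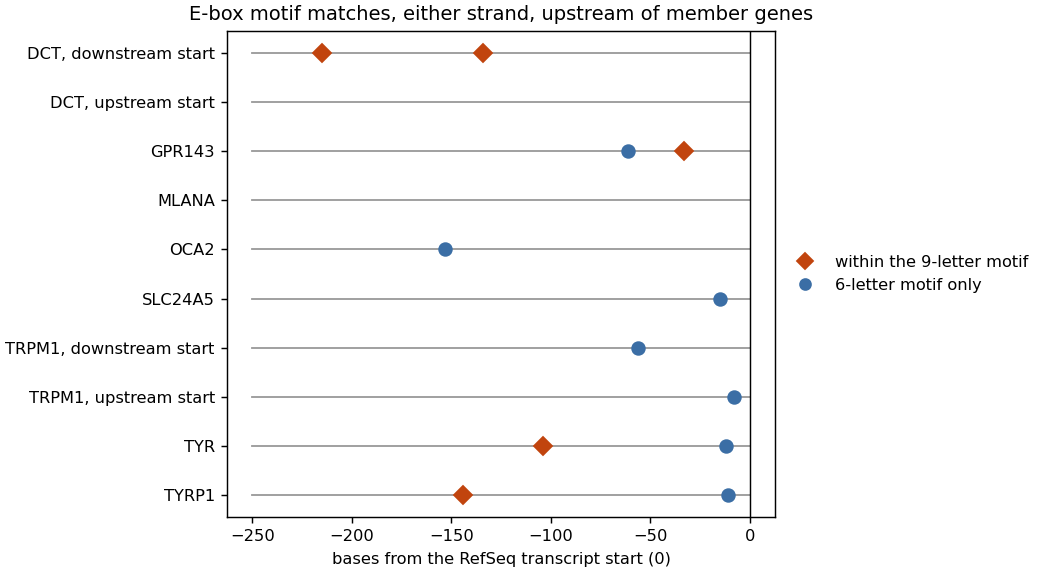
Position of each 6-letter E-box match, in bases from the RefSeq transcript start at 0, in the 250 bases upstream of 10 starts of 8 genes; diamonds lie within the longer 9-letter motif and circles do not. MLANA and the upstream DCT start have no match, and the matches nearest to a start are those of TRPM1 at -8, TYRP1 at -11 and TYR at -12.

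Libraries held 13383741 to 26311674 gene counts, and levels are given as CPM, counts scaled to library size with TMM factors. Melanocyte lineage markers were present in every group, with SOX10 averaging 293 to 805 CPM and MITF 193 to 596 CPM. Group means of the others were 132 to 325 CPM for ERBB3, 112 to 241 for S100B, 19.4 to 44.4 for EDNRB and 17.0 to 35.3 for PAX3. PAX3 alone of these markers was higher in high cells. It averaged 30.4 CPM in EPZ5676 high and 17.0 in EPZ5676 low, and 35.3 in DMSO high and 19.9 in DMSO low cells. Leukocyte markers summed to at most 2.72 CPM in any library. Keratinocyte markers summed to 25.2 to 43.3 CPM, nearly all of it KRT10 (group means 29.8 to 40.3 CPM), with KRT1 at 0 in all groups. Endothelial markers summed to 23.2 to 39.5 CPM, mostly EGFL7 (group means 12.7 to 30.0 CPM), with PECAM1 at 0. VWF, another endothelial marker, averaged 4.02 CPM in EPZ5676 low and 1.96 CPM in DMSO low cells and was called higher there (1.03 ± 0.25, adjusted p = 0.0448); the part of these markers in the results was not tested. Summed fibroblast markers were 655 to 806 CPM in EPZ5676 high, 1180 to 1510 CPM in DMSO high, 100 to 103 CPM in EPZ5676 low and 73.6 to 77.4 CPM in DMSO low libraries, most of it COL1A1 in high cells; 8 of 8 markers were counted, and their part in the results was not tested. One library stood apart from its group. DMSO bulk replicate 1 had 220 CPM of NGFR, against a mean of 10.9 CPM in the other DMSO bulk libraries, and lay at -30.5 on the first principal component, against 45.1 and 44.2. Its fibroblast markers summed to 465 CPM, against 93.2 and 93.5 CPM. In NGFR and in these markers it lies between the other DMSO bulk libraries and DMSO high cells, and the labels give no reason for this. DMSO bulk means include it unless said otherwise. Every comparison shares one estimate of spread over the 18 libraries, so comparisons between treatments are given with this library and without it. Fold changes are log2 ± SE from edgeR's quasi-likelihood test, with p-values adjusted by Benjamini-Hochberg over all tested genes and a threshold of 0.05. Nothing in the labels says that replicates came from separate cultures, so the p-values measure only the spread between these libraries.

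The 10 genes differed widely in level. Per kilobase of merged exons, PMEL averaged 2676 CPM in EPZ5676 low and 2089 CPM in DMSO low cells. DCT followed with 204 CPM per kilobase in EPZ5676 low and 140 in DMSO low cells. MLANA had 124 CPM per kilobase in EPZ5676 low and 184 in DMSO low cells, so MLANA stood above DCT only in the DMSO group of this pair. TYR, GPR143, SLC45A2, SLC24A5 and TRPM1 ran from 74.0 down to 6.22 CPM per kilobase in EPZ5676 low cells. TYRP1, at 1.07 in EPZ5676 low and 0.880 in DMSO low cells, and OCA2, at 0.322 in EPZ5676 low and 0.366 in DMSO low cells, were the least abundant. PMEL alone made up 64.3% to 70.5% of the counts of the 10 genes in high libraries and 78.0% to 80.7% in low libraries. Together the genes took 0.0761% to 0.134% of all gene counts in high libraries and 1.02% to 1.34% in low libraries.

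**Figure D2:**
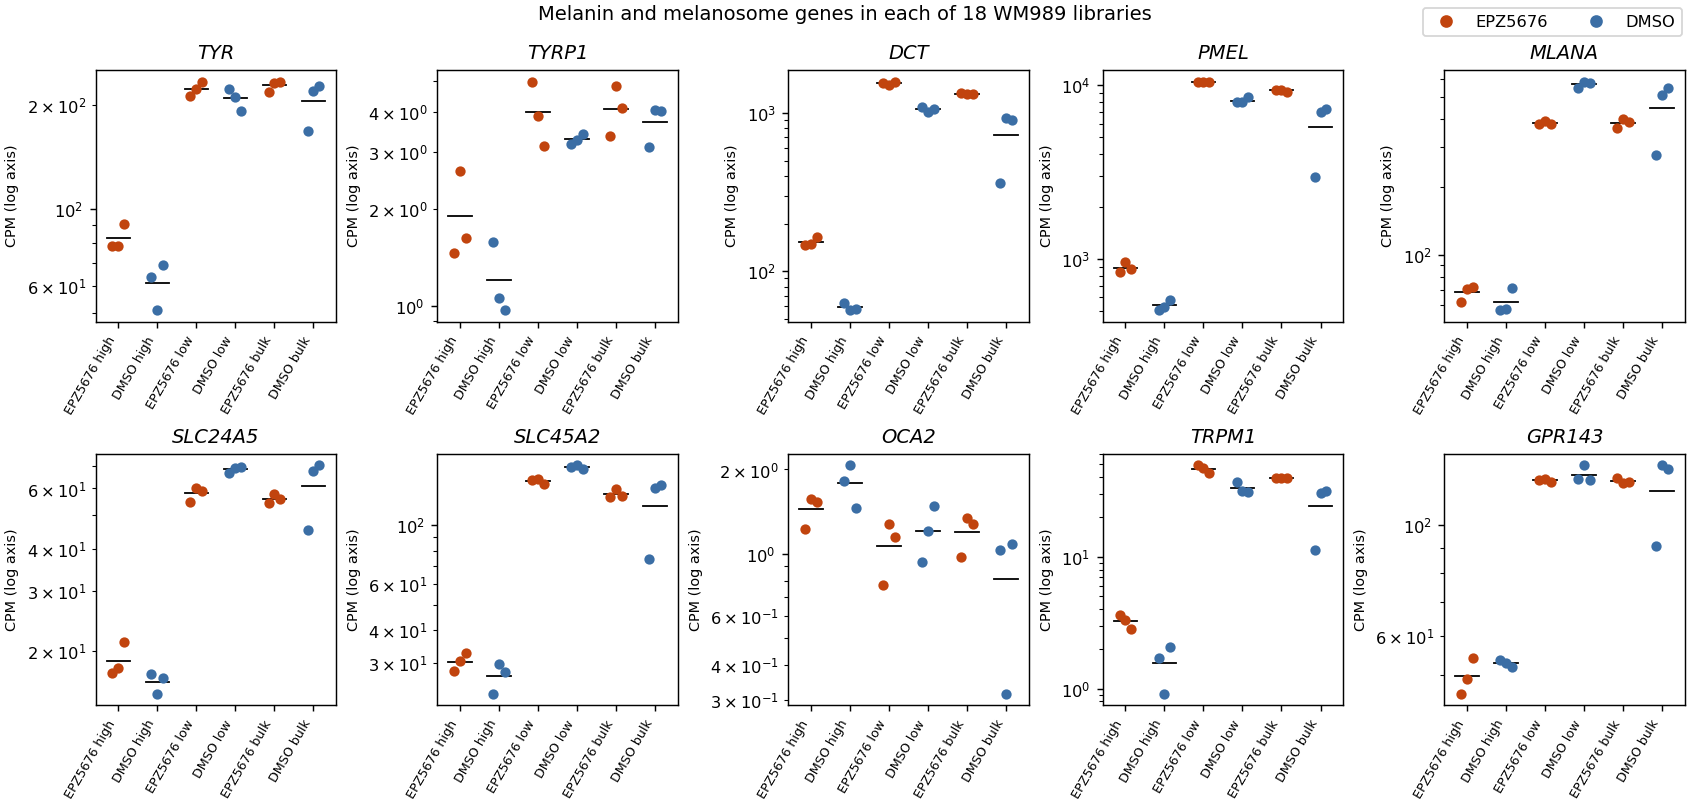
CPM of each gene (log axis, scaled per gene) in each of 18 libraries, 3 per group, with a line at the group mean; EPZ5676 libraries are orange and DMSO libraries blue. In 9 of the 10 genes both high groups lie below both low groups, and the lowest DMSO bulk point of DCT, PMEL, MLANA and TRPM1 is DMSO bulk replicate 1.

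The first comparison asks how pigment genes differ between cells with high and with low NGFR and EGFR. High cells carried far less RNA of 9 of the 10 genes than low cells, under EPZ5676 and under DMSO, and OCA2 was the exception. The 9 genes were lower by 1.06 to 3.84 on the log2 scale under EPZ5676 and by 1.26 to 4.45 under DMSO. Of all tested genes, 23.1% were lower under EPZ5676 and 26.7% under DMSO, while only 4.85% and 6.04% were lower by at least 2-fold, as these 9 were in both. The high libraries of these 9 genes lay wholly below the low libraries under each treatment, where 28.8% of all genes did so under EPZ5676 and 28.7% under DMSO. The median of the 10 genes was -1.95 under EPZ5676 and -2.35 under DMSO, beside 0.02 and 0.03 over all tested genes. All 9 calls in each treatment held in every alternative fit that tested them, including the fit without DMSO bulk replicate 1, in which 24.5% of all genes were lower under EPZ5676 and 27.9% under DMSO. In bulk RNA, fewer cells expressing a gene and less RNA of it per cell cannot be told apart.

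Among the enzymes, DCT had the largest difference. DCT stood at 146, 148 and 165 CPM in EPZ5676 high cells, against 1540, 1500 and 1576 CPM in EPZ5676 low cells, and at 62.7, 56.8 and 58.1 CPM in DMSO high cells, against 1089, 1010 and 1060 CPM in DMSO low cells. No high library came near a low one. The log2 fold change was -3.33 ± 0.27 under EPZ5676 (adjusted p = 6.52e-07) and -4.15 ± 0.28 under DMSO (adjusted p = 7.01e-08). TYR stood at 78.4, 78.3 and 90.8 CPM in EPZ5676 high cells, against 212, 223 and 234 CPM in EPZ5676 low cells, and at 63.8, 51.1 and 68.9 CPM in DMSO high cells, against 223, 212 and 193 CPM in DMSO low cells. High and low libraries of TYR did not overlap, and its change was smaller, -1.44 ± 0.11 under EPZ5676 (adjusted p = 7.52e-08) and -1.77 ± 0.12 under DMSO (adjusted p = 4.3e-09). TYRP1 was low in this line, with 1.46, 2.63 and 1.63 CPM in EPZ5676 high cells against 4.98, 3.90 and 3.15 CPM in EPZ5676 low cells, and 1.58, 1.06 and 0.970 CPM in DMSO high cells against 3.19, 3.26 and 3.42 CPM in DMSO low cells. It was still lower in high cells, by -1.06 ± 0.24 under EPZ5676 (adjusted p = 0.000879) and -1.45 ± 0.26 under DMSO (adjusted p = 5.98e-05).

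The structural gene PMEL stood at 841, 959 and 871 CPM in EPZ5676 high cells, against 10420, 10420 and 10480 CPM in EPZ5676 low cells. Under DMSO it stood at 508, 530 and 584 CPM in high cells, against 7970, 7962 and 8511 CPM in low cells. PMEL in high cells was thus 8.53% of its low-cell mean under EPZ5676 and 6.64% under DMSO, with changes of -3.55 ± 0.26 (adjusted p = 3.06e-07) and -3.91 ± 0.26 (adjusted p = 7.25e-08). On GENCODE 29 models 2.28% of PMEL exon bases also lie in CDK2 on the opposite strand, and the strand setting of the counting is not given in the sources used here. MLANA, whose product helps PMEL mature, averaged 68.5 ± 5.54 CPM in EPZ5676 high and 383 ± 7.89 CPM in EPZ5676 low cells, and 62.2 ± 7.98 CPM in DMSO high and 568 ± 20.9 CPM in DMSO low cells (SD, n = 3 each). Its change was -2.48 ± 0.20 under EPZ5676 (adjusted p = 4.91e-07) and -3.19 ± 0.20 under DMSO (adjusted p = 3.4e-08).

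The transporters split. SLC45A2, a transporter needed for normal melanosome pH, averaged 30.5 CPM in EPZ5676 high and 147 CPM in EPZ5676 low cells (-2.27 ± 0.19, adjusted p = 5.87e-07), and 26.9 CPM in DMSO high and 166 CPM in DMSO low cells (-2.62 ± 0.19, adjusted p = 9.18e-08). SLC24A5, a potassium-dependent sodium/calcium exchanger, averaged 18.8 CPM in EPZ5676 high and 58.0 CPM in EPZ5676 low cells (-1.63 ± 0.12, adjusted p = 1.58e-08), and 16.3 CPM in DMSO high and 68.2 CPM in DMSO low cells (-2.07 ± 0.12, adjusted p = 4.96e-10). For SLC24A5, 32.9% of exon bases lie in MYEF2 on the opposite strand in GENCODE 29. How reads in these bases were counted depends on the strand setting, which is not given in the sources used here. OCA2, a chloride-conductance protein of the melanosome, went with neither. OCA2 stood at 1.23, 1.56 and 1.53 CPM in EPZ5676 high cells, against 0.771, 1.27 and 1.14 CPM in EPZ5676 low cells, and at 1.82, 2.07 and 1.46 CPM in DMSO high cells, against 0.933, 1.21 and 1.48 CPM in DMSO low cells. These ranges overlapped under both treatments, and the differences of 0.41 ± 0.33 (adjusted p = 0.332) and 0.57 ± 0.32 (adjusted p = 0.143) did not pass.

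The channel gene TRPM1 had the largest fold change of the 10 genes under both treatments. It stood at 3.63, 3.30 and 2.82 CPM in EPZ5676 high cells against 49.5, 46.9 and 42.8 CPM in EPZ5676 low cells, and at 1.70, 0.916 and 2.08 CPM in DMSO high cells against 36.7, 31.6 and 30.8 CPM in DMSO low cells. The groups lay far apart, with changes of -3.84 ± 0.33 (adjusted p = 8.92e-07) under EPZ5676 and -4.45 ± 0.38 (adjusted p = 3.71e-07) under DMSO. The receptor GPR143 had the smallest change of the 9 genes under DMSO. It stood at 40.5% of the low-cell mean in EPZ5676 high cells and at 41.9% in DMSO high cells. Its changes were -1.31 ± 0.10 under EPZ5676 (adjusted p = 8.23e-09) and -1.26 ± 0.10 under DMSO (adjusted p = 4.18e-09).

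**Figure D3:**
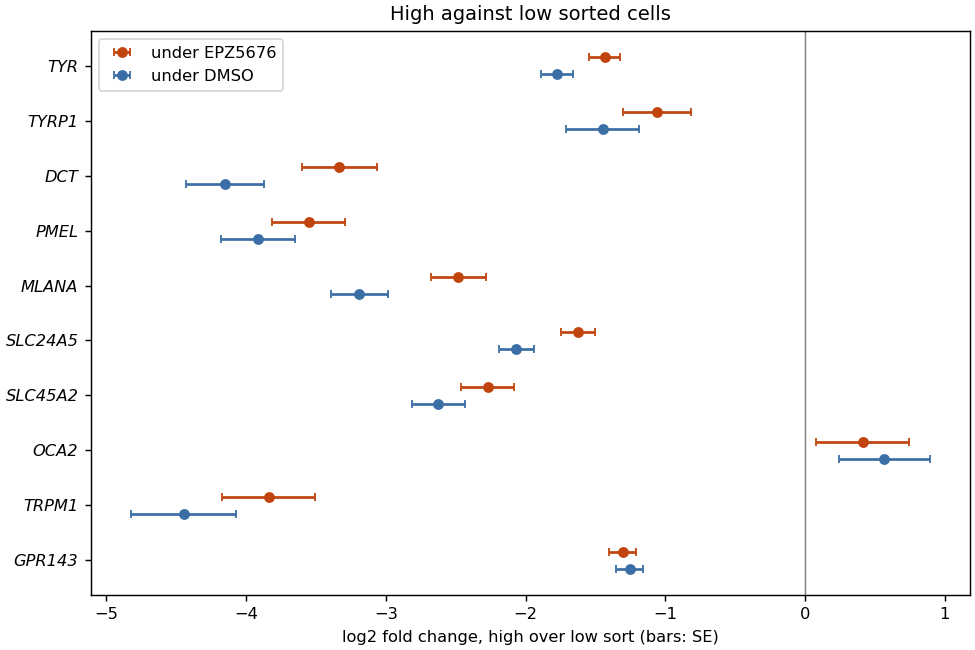
Log2 fold change of high over low cells for each gene (x axis, points with SE bars), under EPZ5676 (orange, upper) and DMSO (blue, lower). TRPM1, PMEL and DCT lie farthest to the left, GPR143 and TYRP1 nearest to 0 among the 9 lower genes, and only OCA2 lies to the right of 0.

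The second comparison asks what the DOT1L inhibitor did to these genes in high cells. DCT rose, and PMEL, TRPM1, TYR and SLC24A5 were higher in all 3 EPZ5676 libraries than in any DMSO library. DCT had 146, 148 and 165 CPM in EPZ5676 high cells, against 62.7, 56.8 and 58.1 CPM in DMSO high cells, a log2 fold change of 1.37 ± 0.25 (adjusted p = 0.0128). It was the only one of the 10 genes to pass, where 3% of all tested genes passed in either direction. The DCT call was lost without DMSO high replicate 2 (1.34, adjusted p = 0.0552), without DMSO high replicate 3 (1.35, adjusted p = 0.05) and with limma-voom (1.37, adjusted p = 0.0505). Of the 6 libraries with over 16% of reads on no feature, 5 were EPZ5676 libraries, and leaving out the 6 kept 1 library of EPZ5676 high, assumed to vary like the other groups. DCT then stood at 1.47, with no call (adjusted p = 0.745). Without DMSO bulk replicate 1, which is in neither group, the same DCT difference was 1.37 ± 0.05 (adjusted p = 1.57e-20), and 4 of the 10 genes were higher and 0 lower, where 6.08% of all genes were higher and 11.2% passed in either direction.

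PMEL had 841, 959 and 871 CPM in EPZ5676 high cells, against 508, 530 and 584 CPM in DMSO high cells. The groups did not overlap, and the change was 0.72 ± 0.24 (adjusted p = 0.138), or 0.72 ± 0.05 (adjusted p = 1.03e-08) without DMSO bulk replicate 1. TRPM1 had 3.63, 3.30 and 2.82 CPM in EPZ5676 high cells, against 1.70, 0.916 and 2.08 CPM in DMSO high cells. Its change was 1.10 ± 0.46 (adjusted p = 0.253), or 1.10 ± 0.20 (adjusted p = 0.000157) without that library. TYR had 78.4, 78.3 and 90.8 CPM in EPZ5676 high cells, against 63.8, 51.1 and 68.9 CPM in DMSO high cells, with a change of 0.43 ± 0.11 (adjusted p = 0.0517), or 0.43 ± 0.09 (adjusted p = 0.00537) without that library.

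The other genes of high cells differed less between treatments. SLC24A5 libraries lay at 17.3 to 21.3 CPM in EPZ5676 high and 15.04 to 17.1 CPM in DMSO high cells, and its change of 0.21 ± 0.13 did not pass (adjusted p = 0.456, or 0.0799 without DMSO bulk replicate 1). Thus 5 of the 10 genes lay wholly above DMSO high cells, where 12.7% of all tested genes did. MLANA (0.14 ± 0.19, adjusted p = 0.787), SLC45A2 (0.18 ± 0.19, adjusted p = 0.711) and TYRP1 (0.66 ± 0.28, adjusted p = 0.23) were not called in either fit. GPR143 (-0.09 ± 0.10, adjusted p = 0.734) and OCA2 (-0.31 ± 0.32, adjusted p = 0.698) had negative estimates and were not called in either fit.

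High cells were sorted by surface NGFR and EGFR, and the values of those genes and of low cells stand beside the DCT result. NGFR RNA averaged 727 CPM in EPZ5676 high and 572 CPM in DMSO high cells, and EGFR RNA 62.5 CPM in EPZ5676 high and 75.9 CPM in DMSO high cells. The gain in high cells, EPZ5676 minus DMSO, equalled 6.08% of the EPZ5676 low mean for DCT, 9.51% for TYR, 3.35% for PMEL, 3.63% for TRPM1, 1.65% for MLANA, 2.46% for SLC45A2, 4.27% for SLC24A5 and 17.5% for TYRP1, and it was -2.51% for GPR143 and -32.2% for OCA2. The share of low cells in the sorted high cells, and its part in these differences, was not tested. Summed fibroblast markers were lower in EPZ5676 high than in DMSO high cells, mostly through COL1A1 (433 CPM in EPZ5676 high and 930 CPM in DMSO high cells). LUM went the other way, with 52.7 CPM in EPZ5676 high and 31.7 CPM in DMSO high cells. It was the 1 of the 8 called between them (0.73 ± 0.14, adjusted p = 0.00828), where 3% of all genes were called. Without DMSO bulk replicate 1, 2 of the 8 were higher and 3 lower, where 6.08% of all genes were higher and 5.1% lower. The part of these markers was not tested either.

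In low cells, which hold most of the pigment gene RNA, the inhibitor went with opposite shifts among the 10 genes. DCT, PMEL and TRPM1 lay above DMSO in all 3 EPZ5676 libraries, and MLANA, SLC24A5 and SLC45A2 lay below. With all 18 libraries 0 of the 10 genes passed edgeR's test, where 1.04% of all genes did. DESeq2 also called 0 of the 10, and 317 of all 18121 genes. In edgeR's test 2169 of 18121 genes had an unadjusted p under 0.05. Without DMSO bulk replicate 1, which is in neither group, 3 were higher and 2 lower, where 3.16% of all genes were higher and 2.2% lower. Of all tested genes, 11.6% lay wholly above and 11.5% wholly below DMSO low cells.

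DCT had 1540, 1500 and 1576 CPM in EPZ5676 low cells, against 1089, 1010 and 1060 CPM in DMSO low cells. Its change was 0.55 ± 0.25 (adjusted p = 0.403), or 0.55 ± 0.05 (adjusted p = 5.19e-10) without DMSO bulk replicate 1. PMEL had 10420, 10420 and 10480 CPM in EPZ5676 low cells, against 7970, 7962 and 8511 CPM in DMSO low cells, which gave 0.36 ± 0.23 (adjusted p = 0.603), or 0.36 ± 0.05 (adjusted p = 0.000127) without that library. TRPM1 had 49.5, 46.9 and 42.8 CPM in EPZ5676 low cells, against 36.7, 31.6 and 30.8 CPM in DMSO low cells, which gave 0.49 ± 0.27 (adjusted p = 0.511), or 0.49 ± 0.09 (adjusted p = 0.00101) without that library. In each of these 3 genes the lowest EPZ5676 library lay above the highest DMSO library.

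MLANA went the other way in low cells. It had 378, 392 and 379 CPM in EPZ5676 low cells, against 544, 584 and 575 CPM in DMSO low cells, a change of -0.57 ± 0.19 (adjusted p = 0.211), or -0.57 ± 0.07 (adjusted p = 2.48e-05) without DMSO bulk replicate 1. SLC24A5 had 54.8, 60.4 and 59.0 CPM in EPZ5676 low cells, against 66.5, 68.7 and 69.4 CPM in DMSO low cells, which gave -0.23 ± 0.12 (adjusted p = 0.44), or -0.23 ± 0.07 (adjusted p = 0.031) without that library. SLC45A2 averaged 147 CPM in EPZ5676 low and 166 CPM in DMSO low cells, and its change of -0.17 ± 0.18 did not pass in either fit (adjusted p = 0.778 and, without that library, 0.107). TYR averaged 223 CPM in EPZ5676 low and 209 CPM in DMSO low cells, and GPR143 averaged 123 CPM in EPZ5676 low and 126 CPM in DMSO low cells. Neither TYR (0.09 ± 0.11) nor GPR143 (-0.04 ± 0.09) passed in either fit, and the same held for TYRP1 and OCA2. Because PMEL is so abundant, the summed level of the 10 genes was 12960 ± 63.8 CPM in EPZ5676 low and 10370 ± 308 CPM in DMSO low cells (SD, n = 3 each).

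In the bulk culture DMSO replicate 1 decided the values. Of the mean of the other DMSO bulk libraries it held 36.6% for TRPM1, 39.4% for DCT, 41.5% for PMEL, 52.4% for MLANA, 53.0% for SLC45A2, 65.8% for SLC24A5, 69.5% for GPR143, 75.4% for TYR and 76.8% for TYRP1, and for OCA2, which averaged under 1 CPM there, 148%. DCT had 1331, 1313 and 1312 CPM in EPZ5676 bulk, against 358, 922 and 895 CPM in DMSO bulk. PMEL had 9340, 9415 and 9169 CPM in EPZ5676 bulk, against 2968, 7040 and 7261 CPM in DMSO bulk. MLANA had 363, 399 and 386 CPM in EPZ5676 bulk, against 277, 508 and 549 CPM in DMSO bulk, so that its first DMSO library lay below and the other two above every EPZ5676 library.

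With all 18 libraries 0 of the 10 genes passed edgeR's test in bulk, where 0.728% of all genes did; DESeq2 called 2, DCT and PMEL, and 2227 genes had an unadjusted p under 0.05. DCT, PMEL and TRPM1 lay wholly above DMSO, where 8.21% of all genes did, with changes of 0.86 ± 0.25 (adjusted p = 0.167), 0.69 ± 0.24 (adjusted p = 0.25) and 0.68 ± 0.27 (adjusted p = 0.34). Without DMSO bulk replicate 1, DCT was higher by 0.54 ± 0.05 (adjusted p = 1.38e-08) and PMEL by 0.38 ± 0.05 (adjusted p = 0.000342). MLANA then changed by -0.47 ± 0.08 (adjusted p = 0.000978) and SLC24A5 by -0.29 ± 0.07 (adjusted p = 0.0171), while TRPM1 was at 0.34 ± 0.11 (adjusted p = 0.0755). In that fit 2.1% of all genes were higher and 0.949% lower. In the fits without DMSO bulk replicate 1, DCT, PMEL, MLANA and SLC24A5 were called in both the bulk and the low comparison, with the same sign. These comparisons share no library, but they share the estimate of spread. The labels do not say that bulk and low cells came from separate cultures, so the comparisons cannot be taken as independent.

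**Figure D4:**
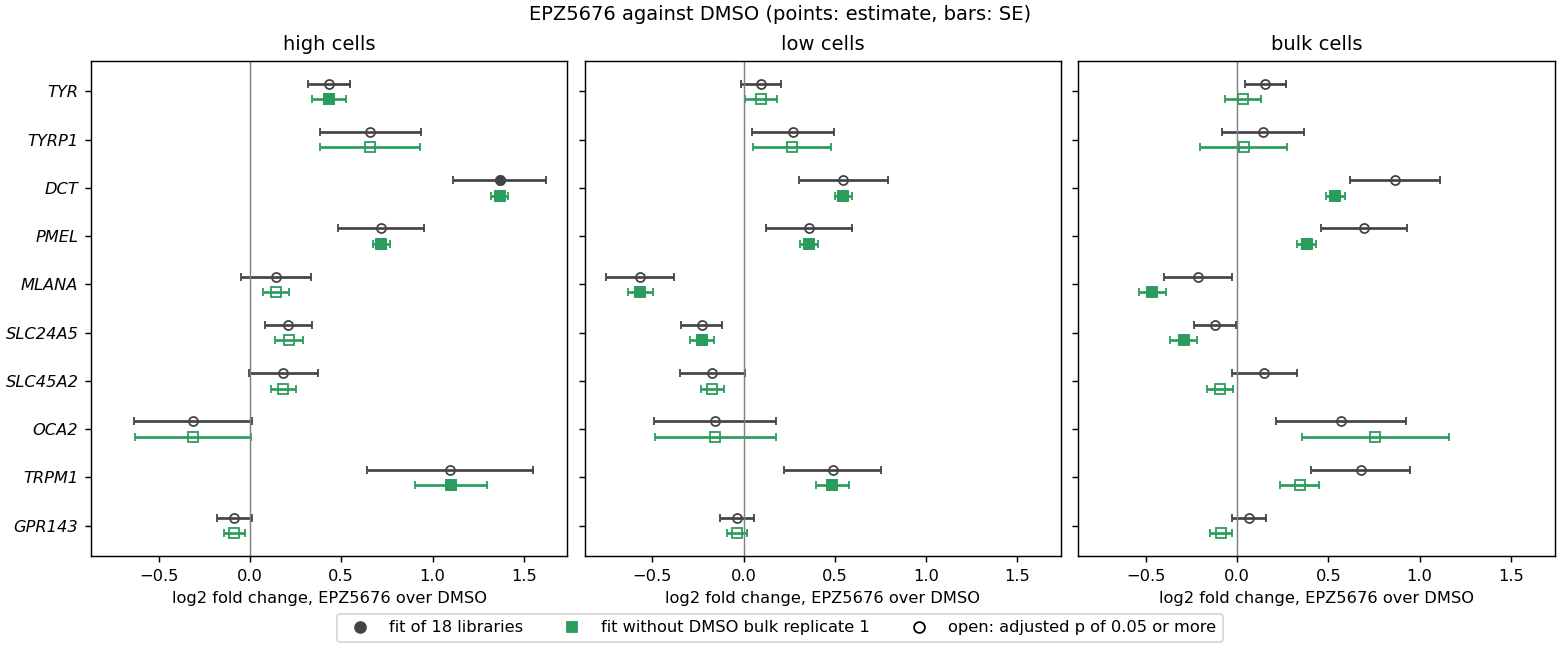
Log2 fold change of EPZ5676 over DMSO for each gene (x axis, points with SE bars) in high, low and bulk cells, from the fit of 18 libraries (grey circles) and the fit without DMSO bulk replicate 1 (green squares); filled points passed an adjusted p of 0.05. In high and low cells both fits give nearly the same estimates with shorter bars in the second, and in bulk the estimates themselves shift, as for MLANA, at -0.22 with all libraries and -0.47 without that one.

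Levels of DCT and of PMEL fell in the same order over the 6 groups, EPZ5676 low, EPZ5676 bulk, DMSO low, DMSO bulk, EPZ5676 high and DMSO high, and no neighbouring groups in that order overlapped. TRPM1 followed this order too, with overlap only of DMSO low and DMSO bulk. MLANA and SLC24A5 had a different one, DMSO low, DMSO bulk, EPZ5676 low, EPZ5676 bulk, EPZ5676 high and DMSO high. The first 4 groups of that order overlapped from neighbour to neighbour, and EPZ5676 bulk and EPZ5676 high lay apart. DMSO bulk overlapped EPZ5676 low only through DMSO bulk replicate 1, at 277 CPM for MLANA and 45.25 CPM for SLC24A5. The other DMSO bulk libraries held 508 and 549 CPM of MLANA, against 378 to 392 CPM in EPZ5676 low. For SLC24A5 they held 67.3 and 70.2 CPM, against 54.8 to 60.35 CPM. EPZ5676 high and DMSO high overlapped for MLANA and not for SLC24A5. TYR, TYRP1 and GPR143 did not separate the low and bulk groups clearly, and for OCA2 every pair of neighbouring groups overlapped.

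Whether the inhibitor acted differently in high and low cells was tested by the interaction, the EPZ5676 effect in high cells minus that in low cells. With all 18 libraries 0 of the 10 genes passed, where 0.32% of all genes did. DESeq2 also called 0 of the 10, and 177 of all 18121 genes. In edgeR's test 2011 genes had an unadjusted p under 0.05. Without DMSO bulk replicate 1, 5 of the 10 passed, all positive, where 3.18% of all genes were positive and 5.97% passed in either direction. On the log2 scale DCT rose more in high than in low cells, by 0.82 ± 0.06 (adjusted p = 1.71e-10), and so did PMEL, by 0.36 ± 0.07 (adjusted p = 0.00265). In CPM both rose more in low cells. DCT means went from 59.2 to 153 CPM in high and from 1053 to 1538 CPM in low cells. PMEL means went from 541 to 890 CPM in high and from 8147 to 10440 CPM in low cells. For MLANA the interaction of 0.71 ± 0.10 (adjusted p = 0.000108) set an estimate of 0.14 in high cells, which was not called, against the lower level in low cells. SLC24A5 (0.44 ± 0.10, adjusted p = 0.00617) and SLC45A2 (0.35 ± 0.09, adjusted p = 0.0178) likewise had a positive estimate in high and a negative one in low cells. TRPM1 (0.61 ± 0.22, adjusted p = 0.0989) and TYR (0.34 ± 0.13, adjusted p = 0.155) did not pass.

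Other pigment cell genes were read from lists by role. Of 10 regulators and receptors, 7 were lower and 1 higher in high than in low cells under EPZ5676 and likewise under DMSO. The higher one was PAX3 under both treatments. Among all tested genes, 23.1% were lower and 25.8% higher under EPZ5676, and 26.7% were lower and 29.6% higher under DMSO. MITF stood at 222, 234 and 261 CPM in EPZ5676 high cells against 571, 569 and 585 CPM in EPZ5676 low cells (-1.27 ± 0.10, adjusted p = 6.88e-08), and at 197, 181 and 202 CPM in DMSO high cells against 641, 582 and 565 CPM in DMSO low cells (-1.63 ± 0.10, adjusted p = 2.27e-09). SOX10, a neural crest transcription factor upstream of MITF, was lower by -1.10 ± 0.11 under EPZ5676 and -1.35 ± 0.11 under DMSO. In high cells MITF was not called between treatments (0.31 ± 0.10, adjusted p = 0.122), and without DMSO bulk replicate 1 it was higher (0.31 ± 0.05, adjusted p = 9.86e-05). In low cells MITF was not called in either fit (-0.05 ± 0.10, adjusted p = 0.905). EDNRB, the endothelin receptor of melanocytes, was the 1 called gene of this list between treatments in high cells, where 1.95% of all genes were higher, at 32.8 ± 2.16 CPM under EPZ5676 and 19.4 ± 1.59 CPM under DMSO (SD, n = 3 each; 0.76 ± 0.12, adjusted p = 0.00104). Without DMSO bulk replicate 1, 4 of the 10 were higher in high cells, where 6.08% of all genes were: EDNRB (adjusted p = 7.41e-09), IRF4 (0.84 ± 0.12, adjusted p = 4e-06), MITF and SOX10 (0.36 ± 0.10, adjusted p = 0.0403).

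Of 8 genes of PMEL processing and melanosome content, 7 were lower in high cells under EPZ5676 and 8 under DMSO, with medians of -1.54 and -1.47, beside the 23.1% and 26.7% of all genes that were lower. BACE2, a protease that cuts PMEL, was lower by -0.98 ± 0.07 under EPZ5676 and -1.23 ± 0.07 under DMSO, and CD63, a tetraspanin that sorts PMEL, by -1.16 ± 0.10 and -1.01 ± 0.10. In high cells BACE2 (0.29 ± 0.07, adjusted p = 0.0195) and the melanosomal glycoprotein gene GPNMB (0.31 ± 0.07, adjusted p = 0.0101) were higher under EPZ5676. The BACE2 call was lost without DMSO high replicate 1 (0.28, adjusted p = 0.0779), DMSO high replicate 2 (0.28, adjusted p = 0.0641) or EPZ5676 high replicate 3 (0.25, adjusted p = 0.104). The GPNMB call was lost without DMSO high replicate 1 (0.29, adjusted p = 0.0575) or EPZ5676 high replicate 3 (0.27, adjusted p = 0.0742). Both passed at the same size without DMSO bulk replicate 1, BACE2 with adjusted p = 6.15e-06 and GPNMB with adjusted p = 3.71e-06. Of 7 tested transporter genes, 6 were lower in high cells under each treatment, against the same shares of all genes. MFSD12, the cysteine importer of melanosomes, was higher under EPZ5676 in high cells (0.27 ± 0.06, adjusted p = 0.00937), and not called without DMSO high replicate 1 (0.25, adjusted p = 0.0546) or EPZ5676 high replicate 2 (0.27, adjusted p = 0.0545). Its adjusted p was 0.000107 without DMSO bulk replicate 1.

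Of 17 genes of the BLOC, AP-3 and RAB pathways, which carry cargo to melanosomes, 10 were lower and 0 higher in high cells under EPZ5676, and 10 lower and 2 higher under DMSO, with medians of -0.24 and -0.33. Of all genes, 23.1% were lower and 25.8% higher under EPZ5676, and 26.7% lower and 29.6% higher under DMSO. RAB38 and RAB32, small GTPases that deliver TYR and TYRP1, were lower by -1.71 ± 0.14 and -1.03 ± 0.08 under EPZ5676 and by -1.88 ± 0.14 and -1.19 ± 0.08 under DMSO. Between treatments in high cells 0 of these 17 passed edgeR's test, where 3% of all genes did; without DMSO bulk replicate 1, 1 was lower, AP3B1 (-0.21 ± 0.06, adjusted p = 0.0163), a subunit of the AP-3 adaptor, where 5.1% of all genes were. Of 5 genes of melanosome transport, 3 were lower and 1 higher in high cells under each treatment, beside the same shares of all genes. The higher gene was MYO5A under EPZ5676 (0.19) and MLPH under DMSO (0.37). MYO5A, the motor that moves melanosomes on actin, was lower under EPZ5676 in low cells (-0.30 ± 0.06, adjusted p = 0.019, or 6.9e-05 without DMSO bulk replicate 1) and in bulk (-0.30 ± 0.06, adjusted p = 0.023; -0.21 ± 0.05, adjusted p = 0.015, without DMSO bulk replicate 1). The MYO5A call in low cells was lost without any 1 of DMSO low replicates 1 and 2 and EPZ5676 low replicates 1, 2 and 3 (adjusted p = 0.0518 to 0.112), and that in bulk without any 1 EPZ5676 bulk replicate (adjusted p = 0.0971 to 0.115). In high cells MYO5A was not called with all 18 libraries, and was lower without DMSO bulk replicate 1 (-0.16 ± 0.05, adjusted p = 0.0227). MLPH, which links MYO5A to RAB27A, was lower under EPZ5676 in high cells (-0.28 ± 0.05, adjusted p = 0.0033, or 7.16e-05 without DMSO bulk replicate 1). S100B, a calcium-binding marker of melanocytes, was higher under EPZ5676 in high cells (0.38 ± 0.07, adjusted p = 0.0022, or 7.76e-06 without DMSO bulk replicate 1). The high-cell calls of EDNRB, BACE2, GPNMB, MFSD12, MLPH and S100B between treatments did not hold without the 6 libraries over 16% no feature (adjusted p = 0.371 to 0.586), a fit with 1 EPZ5676 high library. Their fold changes there were 0.76, 0.40, 0.44, 0.35, -0.31 and 0.44 in that order.

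Genes outside the 10 with the most similar profile were ranked by Pearson's r, over the 18 libraries, to the mean standardised log2 CPM of the 10. The libraries form separate clusters by sort, which sets most of these values. So r is also given within the 12 low and bulk libraries and within the 6 high libraries. The 12 include DMSO bulk replicate 1, where the mean of the 10 was -0.014, against 0.32 to 0.71 in the other low and bulk libraries. That library may set much of r within low and bulk, and r without it was not computed. RAB7A, a late endosomal GTPase, had r = 0.994 over all 18 libraries, 0.906 within low and bulk and 0.956 within high libraries. BCAN, a chondroitin sulfate proteoglycan, had 0.994, 0.912 and 0.868 on the same sets, and CDK2, which overlaps PMEL on the opposite strand, had 0.994, 0.914 and 0.966. RGS20, CNP and RAB38 followed at 0.993 over the 18 libraries, with 0.940, 0.958 and 0.897 within low and bulk and 0.944, 0.769 and 0.812 within high libraries. The lowest were LTBP3, a latent TGF-beta binding protein, at -0.992, KLF6 at -0.991 and the survival gene MCL1 at -0.990, with -0.938, -0.857 and -0.843 within low and bulk and -0.956, -0.931 and -0.872 within high libraries. Within the set, OCA2 had r = -0.569 to the mean of the other genes over 18 libraries, and the other 9 had 0.898 to 0.991.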

How the data were processed

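Poly(A) RNA of 18 WM989 libraries had been sequenced with paired ends; the submitters' processing notes name STAR, HTSeq and the build hg19, and versions, annotation release and strand setting are not given in the sources used here. The deposited table holds the authors' raw counts per Ensembl gene and library. Its 5 HTSeq summary lines per library were left out of library sizes and tests; 12.8% to 28.65% of a library's reads fell on no feature, and 6.07% to 7.71% were ambiguous. Gene symbols came from a current name table for 52181 genes and from GENCODE 29 alone for 345, and 11151 stayed unnamed. Depth ran from 13383741 to 26311674 gene counts, and 0 pairs of libraries were identical.

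Counts were tested in R 4.3.3 with edgeR 4.0.16: filterByExpr kept 18121 genes, TMM factors were used, and a robust quasi-likelihood model with 6 group means over all 18 libraries left 12 residual degrees of freedom. The Benjamini-Hochberg adjustment was made for each of 6 comparisons separately, at a threshold of 0.05, and SE was derived from the F statistic. CPM used TMM-scaled library sizes; the likeness ranking used log2 CPM with a prior count of 2 and took genes whose highest group averaged 10 CPM or more. Exon lengths and overlaps came from GENCODE 29 (GRCh38), which is not the authors' build, so no gene coordinates are given; promoters are RefSeq windows. The pipeline was tested on simulated data. Alternatives were RLE factors, library size alone, no filter, a filter at a mean of 5 CPM, limma-voom (limma 3.58.1), DESeq2 1.42.0, a block for the replicate number, a fit of the compared groups alone, the no-feature share as a covariate, and leaving out libraries. Combinations with DMSO bulk replicate 1 left out were chosen after seeing the data. The 10 genes, the lists and the rule for naming other genes (up to 3 called genes with the smallest p per list and comparison) were chosen with earlier results of these data known. Figures were drawn with matplotlib 3.10.9 under Python 3.11.15, and tables were made with pandas 2.3.3 and numpy 2.4.6.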

Additional observations from a re-analysis of the deposited data

Results flagged for a closer look

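The EPZ5676 effect differed between high and low cells for 5 genes in the fit without DMSO bulk replicate 1, by a test of the difference itself (edgeR's quasi-likelihood test on the interaction, adjusted over all 18121 genes). The difference, high minus low on the log2 scale, was 0.82 for DCT, 0.36 for PMEL, 0.71 for MLANA, 0.44 for SLC24A5 and 0.35 for SLC45A2. With all 18 libraries the same estimates did not pass for any of these 5 genes.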

How the results depend on the processing

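The 9 genes lower in high than in low cells kept their call under both treatments in every alternative fit that tested them; TYRP1 and OCA2 were not tested under a mean of at least 5 CPM. The other counts of called genes depended on the fit. In high cells (1 with all libraries) the count was 2 with library size alone, with no filter, with a mean of at least 5 CPM and with the replicate number as a block, 3 with DESeq2, 4 with only the groups compared, and 0 with limma-voom and without the libraries over 16% no feature. In low cells (0) it was 6 with only the groups compared, in bulk (0) 2 with DESeq2, and for the interaction (0) 2 with no filter and 5 with only the groups compared. With DMSO bulk replicate 1 left out and the no-feature share as covariate, the counts were 4 in high, 4 in low, 3 in bulk and 5 for the interaction. Leaving out the libraries over 16% no feature instead kept 1 library of EPZ5676 high, so no counts are given for that combination. Leaving out 1 library gave 0 to 4 in bulk, 0 to 4 in high, 0 to 5 in low and 0 to 5 for the interaction, and leaving out DMSO bulk replicate 1 with each other library 3 to 4, 4 to 6, 4 to 5 and 4 to 7. Over all 18121 genes, leaving out 1 library gave 39 to 552 calls in bulk and 200 to 2027 in high cells. It gave 62 to 971 in low cells and 14 to 1081 for the interaction. Leaving out DMSO bulk replicate 1 with each other library gave 165 to 385, 1192 to 1833, 520 to 839 and 707 to 1288. With that library out and the covariate, calls over all genes were 2010 in high, 908 in low, 425 in bulk and 1034 for the interaction. In the other fits of high cells, calls over all genes were 574 with library size alone, 525 with the block, 806 with DESeq2 and 565 with limma-voom. Only the groups compared gave 1409 there, 1035 in low cells and 861 for the interaction. No filter gave 948 of 43960 genes in high cells and 304 of 43960 for the interaction. A mean of at least 5 CPM gave 617 of 11439 in high cells, and DESeq2 gave 290 in bulk. The causes were not tested.

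Signs turned only for estimates near 0 that were not called. Leaving out 1 library at a time gave -0.0952 to 0.305 for SLC45A2, -0.0899 to 0.155 for GPR143 and -0.00507 to 0.263 for TYRP1 in bulk, -0.311 to 0.0211 for OCA2 and -0.0886 to 0.00419 for MITF in low cells, and -0.114 to 0.00414 for the GPR143 interaction; the lowest SLC45A2 and GPR143 values in bulk are those without DMSO bulk replicate 1. With that library out and the no-feature share as covariate, bulk SLC45A2 was -0.0617, GPR143 -0.0662 and TYRP1 -0.019; with it and the libraries over 16% no feature out, bulk SLC45A2 was -0.0408 and GPR143 -0.107. With it and one more bulk library out (DMSO replicates 2 and 3, then EPZ5676 replicates 1, 2 and 3), SLC45A2 was -0.119, -0.0711, -0.0785, -0.127 and -0.0815 and GPR143 -0.0768, -0.103, -0.0996, -0.0834 and -0.0866, and TYRP1 was -0.117 without EPZ5676 bulk replicate 2. Without the libraries over 16% no feature, GPR143 was 0.0259 in high cells and 0.0563 for the interaction, and OCA2 0.00543 in low cells (0.026, 0.0562 and 0.00494 with DMSO bulk replicate 1 also out). With DMSO bulk replicate 1 and one more library out, OCA2 in low cells was 0.0238 (DMSO low replicate 3), MITF 0.0042 (DMSO low replicate 1) and the GPR143 interaction 0.00428 (EPZ5676 high replicate 1).

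Over all genes, library size alone moved the high against low split to 4067 higher and 4931 lower under EPZ5676 (4668 and 4190 with TMM) and to 4746 and 5564 under DMSO (5355 and 4844). Same-numbered libraries deviated from their group means with correlations of -0.34 to 0.296. For high against low cells under EPZ5676 they were 0.181, -0.121 and 0.296. With 3 libraries per group these values cannot decide whether the numbers pair libraries, and the labels do not say. With the replicate number as a block the number of genes called moved by less than 1.5 times in each comparison. Counting depth limits TYRP1, OCA2 and, in high cells, TRPM1 most.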
